A study of Macaca mulatta with 7 samples.

Results

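The PIWI pathway genes described here are PIWIL1, PIWIL2, PIWIL4, DDX4, MAEL, MOV10L1, TDRD1, TDRD6, TDRD9 and ASZ1, 10 of the 18282 genes analysed in sperm RNA of rhesus macaques. They were chosen by symbol, for their known roles, and all 10 are in the deposited table with read counts split into those on the strand that the gene is annotated on (sense) and those on the other strand (antisense). PIWI proteins are germline Argonaute proteins that bind piRNAs, small RNAs that guide them to transcripts of transposable elements and, for nuclear PIWI proteins, to the genomic loci that make them. In the mammalian testis the pathway works in cytoplasmic granules of developing germ cells, where an RNA helicase and endonucleases make piRNA precursors into mature piRNAs and Tudor domain proteins hold the parts together. The genes are active in spermatogonia, spermatocytes and round spermatids, and mature sperm is largely silent in transcription, so messenger RNA found in sperm is commonly regarded as carried over from those stages.

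The libraries were made from total RNA of purified sperm from 3 Maltreated and 4 Control rhesus macaques (Macaca mulatta), 1 library for each animal, in a series on early life stress. The Maltreated animals were 5.67, 5.71 and 5.78 years old and the Control animals 5.72, 5.82, 5.88 and 5.92 years old, and the labels name no genotype and no other treatment of the animals. All sperm had passed a PureSperm 40/80 density gradient, a centrifugation step that enriches sperm over other cells, and all RNA was extracted with TRIzol. The labels do not say what maltreatment consisted of, or when it took place.

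The libraries held 30715268, 6160996 and 10690315 sense counts in Maltreated 1 to 3, against 5316383 to 9847743 in the Control libraries, so Maltreated 1 was the deepest by far. Antisense counts made up 6.15 to 9.69% of all counts in Maltreated and 6.85 to 12.1% in Control libraries. The summed level of 18 genes of sperm and spermatid structure was 46994 to 105131 CPM in Maltreated and 51042 to 64452 CPM in Control sperm (CPM is the count of a gene scaled to a common library total), the highest of the cell type lists in every library. The 18 markers of earlier germ cells, a list that holds none of the 10 genes, summed to 519 to 765 CPM in Maltreated and 469 to 670 CPM in Control sperm, and 14 to 18 of them had a count in each library. Leukocyte markers (15 genes) were uneven in both groups, with 11.5, 55.5 and 980 CPM in Maltreated 1 to 3 and 14.1, 13.2, 53.3 and 714 CPM in Control 1 to 4. Testis somatic markers (13 genes, INSL3 at 0 in every library) summed to 21.6 to 44.4 CPM in Maltreated and 28.5 to 106 CPM in Control sperm. In RNA from bulk sperm, fewer cells of a type and less RNA per cell cannot be told apart.

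The PIWI pathway genes together stood between 1308 and 1649 CPM in every library, with no separation of the groups. Summed over the 10 genes, the sense level was 1507, 1649 and 1308 CPM in Maltreated 1 to 3, against 1508, 1327, 1369 and 1484 CPM in Control 1 to 4. The mean was 1488 ± 171 CPM (SD, n = 3) in Maltreated and 1422 ± 87.6 CPM (SD, n = 4) in Control sperm, a log2 ratio of 0.07 that lies within the spread between libraries of a group (pooled SD 0.127 on the log2 scale). CPM of single genes and of these sums are scaled with TMM factors, which correct for differences in composition between libraries. Between 9 and 10 of the 10 genes had a sense count in each library. TDRD9 alone supplied 52.1, 55.0 and 55.0% of the counts of the 10 genes in Maltreated 1 to 3 and 53.3, 48.4, 65.9 and 39.9% in Control 1 to 4. With PIWIL1 counted once per exon the sums were 1238 to 1541 CPM in Maltreated and 1233 to 1410 CPM in Control sperm.

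Per length, the 10 genes spanned a wide range of levels, with TDRD9 at the top and PIWIL4 at the bottom. The mean over the 7 libraries was 162 CPM per kilobase for TDRD9, 49.8 for MOV10L1, 44.2 for PIWIL2, 33.1 for PIWIL1, 26.8 for MAEL and 20.2 for DDX4. It was 5.58 CPM per kilobase for ASZ1, 1.94 for TDRD1, 1.035 for TDRD6 and 0.0522 for PIWIL4. The median over the 10719 genes tested was 4.505 CPM per kilobase, and 97.5% of these genes had a lower mean level than TDRD9, against 55.0% for ASZ1, 29.5% for TDRD1 and 15.9% for TDRD6. TDRD9 stood above MOV10L1 and DDX4 above ASZ1 in 7 of 7 libraries. Neighbours in between were less separate, since MOV10L1 exceeded PIWIL2 and PIWIL2 exceeded PIWIL1 in 6 of 7 libraries, PIWIL1 exceeded MAEL in 5 and TDRD1 exceeded TDRD6 in 5. The level of PIWIL1 rests on exon entries that are mostly listed more than once in the deposited files, as described with that gene.

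**Figure D1:**
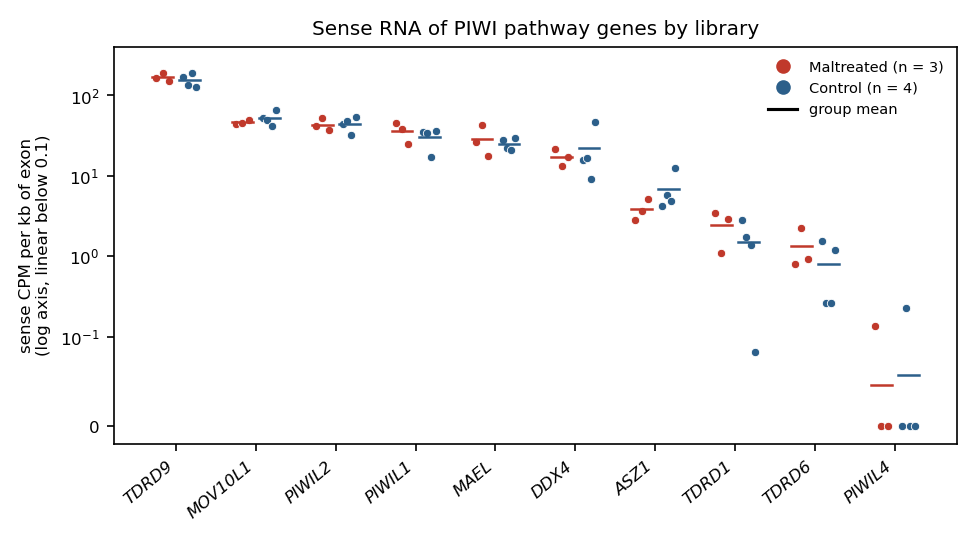
Sense level of the 10 genes in each library, in CPM per kilobase of exon length on a symmetric log axis, with Maltreated libraries left of Control libraries for each gene and group means marked. TDRD9 lies above the other genes in all 7 libraries, the points of both groups overlap for every gene, and TDRD1 and TDRD6 scatter most among the genes tested.

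No PIWI pathway gene passed the test between Maltreated and Control sperm. The edgeR quasi-likelihood test with Benjamini-Hochberg adjustment called 0 of the 9 genes that passed the filter on low counts, and 0% of all 10719 genes tested, at an adjusted p of 0.05. At an unadjusted p of 0.05, 0 of the 9 passed, beside 1.78% of all genes. The DESeq2 Wald test called 0 of the 9 and 0.0288% of all genes (3 of 10424). In 0 of the 9 genes did the libraries of the groups separate without overlap, which 3.59% of all genes did. On the log2 scale the fold change, Maltreated over Control, was above 0 in 5 of the 9 genes and below 0 in 4, against 48.7% above 0 over all genes. Its median was 0.13 for the 9 genes and -0.02 over all genes, and the median of its absolute size was 0.24 and 0.45. The spread between libraries of a group had a median SD of 0.489 on the log2 scale for the 9 genes and 1.08 over all genes. The median level was 56.8 CPM for the 9 genes and 14.0 CPM over all genes, and neither measure was compared at equal level. PIWIL4 did not reach the minimum counts and was not tested.

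**Figure D2:**
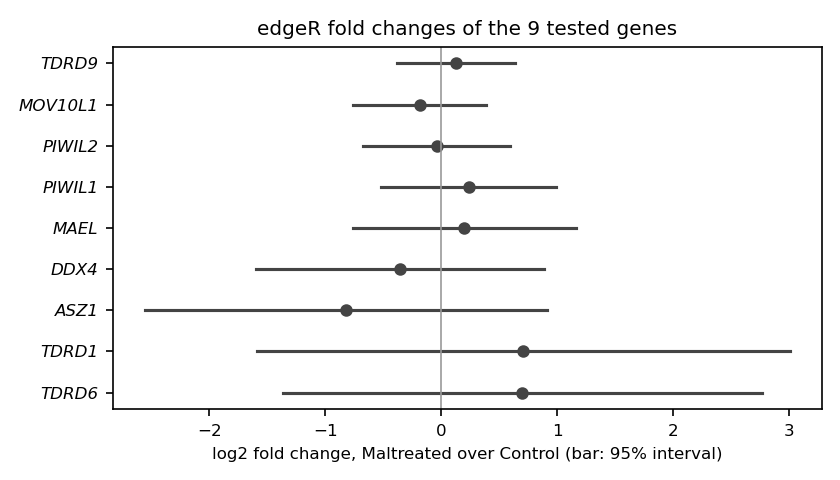
Log2 fold change of Maltreated over Control sperm for the 9 genes tested, with the 95% interval of the edgeR fit and a line at 0. The interval of every gene includes 0, and those of TDRD9 (-0.38 to 0.64), MOV10L1 (-0.76 to 0.39) and PIWIL2 (-0.68 to 0.60) are the narrowest.

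Among the PIWI proteins, PIWIL1 and PIWIL2 were well represented and PIWIL4 was close to undetected. PIWIL2 (in mouse MILI), the cytoplasmic PIWI protein that starts piRNA amplification in fetal and later germ cells, lies on chromosome 8 at 22092459-22180806, plus strand, with 23 exons in the coordinates of the deposited files. It had 4811, 1222 and 1677 counts in Maltreated 1 to 3, against 1631, 1043, 736 and 1134 counts in Control 1 to 4. Scaled to CPM these were 161, 204 and 146 in Maltreated and 174, 189, 126 and 211 in Control sperm. The lowest and the highest value were both in Control libraries, and the groups overlapped throughout. The means were 170.4 ± 30.5 CPM (SD, n = 3) in Maltreated and 175.0 ± 36.2 CPM (SD, n = 4) in Control sperm, with a log2 fold change of -0.04 ± 0.29 (SE; 95% interval -0.68 to 0.60; adjusted p = 0.999, edgeR).

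PIWIL1 (in mouse MIWI), the PIWI protein of pachytene spermatocytes and round spermatids, lies on chromosome 12 at 130305515-130335762, plus strand, with 19 exons. It had 254, 215 and 141 CPM in Maltreated 1 to 3, against 196, 192, 96.5 and 206 CPM in Control 1 to 4. The low library in each group, Maltreated 3 and Control 3, lay well under the rest of its group, and the groups overlapped. Its log2 fold change was 0.24 ± 0.34 (SE; 95% interval -0.52 to 0.99; adjusted p = 0.999, edgeR). Leaving out 1 library gave from 0.04, without Maltreated 1 or without Control 3, to 0.43, without Maltreated 3. PIWIL1 is the 1 gene of the 10 whose exons are entered repeatedly in the deposited files, so most of its reads enter its deposited sense and antisense counts more than once. Over its 19 non-overlapping exons, each used once, its sense counts were 3800, 644 and 817 in Maltreated 1 to 3 and 922, 541, 283 and 553 in Control 1 to 4, in place of the deposited 7588, 1288 and 1622 in Maltreated and 1840, 1059, 565 and 1106 in Control sperm. Its level then became 102 ± 28.6 CPM (SD, n = 3) in Maltreated and 86.9 ± 25.8 CPM (SD, n = 4) in Control sperm, in place of 203.5 ± 57.6 and 172.7 ± 51.1 CPM. The exon length is then 3265 in place of 5622 bases, and the mean level 28.6 in place of 33.1 CPM per kilobase, close to MAEL. Refitted with such exons in all genes, the log2 fold change was 0.24. With only exact repeats of an exon removed, it was 0.145.

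PIWIL4 (in mouse MIWI2), the nuclear PIWI protein that directs DNA methylation of transposable elements in fetal male germ cells, lies on chromosome 11 at 86419734-86468927, plus strand, with 20 exons. It had 13 counts in Maltreated 1 and 0 in Maltreated 2 and 3, against 4 counts in Control 2 and 0 in Control 1, 3 and 4. The 13 counts of Maltreated 1 come to 0.435 CPM and the 4 counts of Control 2 to 0.725 CPM. Where no count was found, a count of 0 allows up to 3 counts, which is 0.281 to 0.500 CPM of all sense counts in Maltreated 2 and 3 and Control 1 and 3 and 0.564 CPM in Control 4. At these depths a difference between the groups was not detectable for PIWIL4.

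The helicases and processing factors held the most abundant transcripts. TDRD9, a helicase with a Tudor domain that silences transposable elements together with PIWIL4 in the mouse, lies on chromosome 14 at 166451334-166578987, plus strand, with 36 exons. It had 23442, 5419 and 8284 counts in Maltreated 1 to 3, against 7530, 3545, 5284 and 3178 counts in Control 1 to 4. In CPM this was 785, 906 and 719 in Maltreated and 803, 642, 903 and 592 in Control sperm. Maltreated 2 and Control 3 were highest and nearly equal, and Control 4 was lowest. The means were 803.6 ± 94.997 CPM (SD, n = 3) in Maltreated and 735.1 ± 143.5 CPM (SD, n = 4) in Control sperm. The log2 fold change came to 0.13 ± 0.23 (SE; 95% interval -0.38 to 0.64; adjusted p = 0.999, edgeR). Without Maltreated 2 the log2 fold change was 0.01, and without Control 4 it was 0.02.

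MOV10L1, the RNA helicase that binds piRNA precursor transcripts and feeds them into processing, lies on chromosome 15 at 91961882-92033299, plus strand, with 27 exons. It had 172, 180 and 192 CPM in Maltreated 1 to 3, against 208, 196, 165 and 256 CPM in Control 1 to 4. The Maltreated libraries lay close together inside the wider range of the Control libraries. The means were 181.4 ± 9.95 CPM (SD, n = 3) in Maltreated and 206.2 ± 37.9 CPM (SD, n = 4) in Control sperm, with a log2 fold change of -0.18 ± 0.26 (SE; 95% interval -0.76 to 0.39; adjusted p = 0.999, edgeR). Without Control 4 it was -0.077. MOV10L1 had the smallest spread within groups of the 9 genes tested, an SD of 0.209 on the log2 scale, followed by TDRD9 with 0.243 and PIWIL2 with 0.295.

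DDX4 (VASA), the DEAD-box helicase that defines germ cell granules and is a common germ cell marker, lies on chromosome 5 at 56542081-56614788, plus strand, with 22 exons. It had 60.8, 37.1 and 49.0 CPM in Maltreated 1 to 3, against 44.0, 47.7, 25.5 and 134 CPM in Control 1 to 4. Control 4 stood far above the other 6 libraries, which overlapped between the groups. It had a log2 fold change of -0.35 ± 0.56 (SE; 95% interval -1.60 to 0.89; adjusted p = 0.999, edgeR) with Control 4 and 0.31 without it, so 1 library set its direction. In Control 4, DDX4 exons 6 to 10 had 99, 99, 96, 95 and 95 counts, and exons 18 and 19 had 75 each. A read overlapping several exons is counted on each, so such counts need not be independent molecules and can raise the level. Control 4 was also 1 of the 2 libraries with many leukocyte counts, while Maltreated 3, the other, had 49.0 CPM of DDX4. The part of leukocytes in these levels was not tested.

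MAEL, a granule protein needed for silencing of transposable elements and for piRNA biogenesis in mouse spermatocytes, lies on chromosome 1 at 200183750-200217235, minus strand, with 12 exons. It had 45.4, 73.8 and 30.2 CPM in Maltreated 1 to 3, against 48.1, 38.2, 36.4 and 50.5 CPM in Control 1 to 4. The Maltreated libraries held both the highest and the lowest value. Its log2 fold change of 0.20 ± 0.44 (SE; 95% interval -0.76 to 1.16; adjusted p = 0.999, edgeR) became -0.21 without Maltreated 2. ASZ1 (GASZ), a scaffold of germ cells that sits on mitochondria at the site of piRNA processing, lies on chromosome 7 at 142636443-142701246, minus strand, with 13 exons. It was low, with 5.26, 6.86 and 9.46 CPM in Maltreated 1 to 3 and 7.79, 10.9, 9.05 and 23.1 CPM in Control 1 to 4. Control 4 was again highest, and the other libraries overlapped. ASZ1 had a log2 fold change of -0.82 ± 0.78 (SE; 95% interval -2.56 to 0.92; adjusted p = 0.999, edgeR), and -0.37 without Control 4.

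The Tudor scaffolds TDRD1 and TDRD6 were low and varied most among the 9 genes. TDRD1, which binds methylated arginines of PIWIL2 and organises the granules between mitochondria, lies on chromosome 10 at 109892559-109945278, plus strand, with 26 exons. It had 460, 30 and 152 counts in Maltreated 1 to 3, against 121, 43, 37 and 2 counts in Control 1 to 4. These were 15.4, 5.02 and 13.2 CPM in Maltreated and 12.9, 7.79, 6.32 and 0.373 CPM in Control sperm. Maltreated 2 lay below 3 of the 4 Control libraries, while Control 4 was nearly without counts. Its log2 fold change was 0.71 ± 1.04 (SE; 95% interval -1.59 to 3.01; adjusted p = 0.999, edgeR), and 0.30 without Control 4.

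TDRD6, a multiple Tudor protein of the chromatoid body of round spermatids, lies on chromosome 6 at 47708722-47724595, plus strand, with 4 exons. It had 216, 121 and 95 counts in Maltreated 1 to 3, against 129, 13, 14 and 57 counts in Control 1 to 4. Maltreated 2 led with 20.2 CPM, ahead of 13.8 CPM in Control 1, and the other libraries lay between 2.36 and 10.6 CPM. TDRD6 had a log2 fold change of 0.70 ± 0.93 (SE; 95% interval -1.36 to 2.77; adjusted p = 0.999, edgeR), and 0.07 without Maltreated 2. The SD within groups was 1.66 on the log2 scale for TDRD1 and 1.14 for TDRD6.

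The covered part of the exon length overlapped between the groups for each of the 10 genes. How often it overlapped over all genes was not counted, so this says nothing particular about the 10. The covered part of the exon length of TDRD9 was 100, 93.1 and 100% in Maltreated 1 to 3 and 95.01, 94.7, 94.1 and 44.6% in Control 1 to 4. PIWIL2 was covered over 79.6, 32.6 and 58.1% of its length in Maltreated 1 to 3 and 52.9, 42.8, 25.3 and 21.3% in Control 1 to 4. The deepest library, Maltreated 1, covered most and the shallowest, Control 4, least of PIWIL2, and the groups overlapped. TDRD1, low in level, was covered over 42.0, 1.53 and 27.4% in Maltreated 1 to 3 and 16.5, 13.2, 6.31 and 1.98% in Control 1 to 4. Of the 202 exons of the 10 genes, 177, 104 and 150 had a sense count in Maltreated 1 to 3, against 144, 147, 115 and 96 in Control 1 to 4. As shares these were 87.6, 51.5 and 74.3% in Maltreated and 71.3, 72.8, 56.9 and 47.5% in Control sperm, where over all exons 79.6, 33.8 and 64.8% in Maltreated and 53.1, 50.3, 37.7 and 33.7% in Control sperm had one. The covered share can overstate the evidence, because 1 count may cover a whole exon. The last exon of PIWIL1, 851 bases long, had 1 count in Control 3 and all 851 bases covered.

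**Figure D3:**
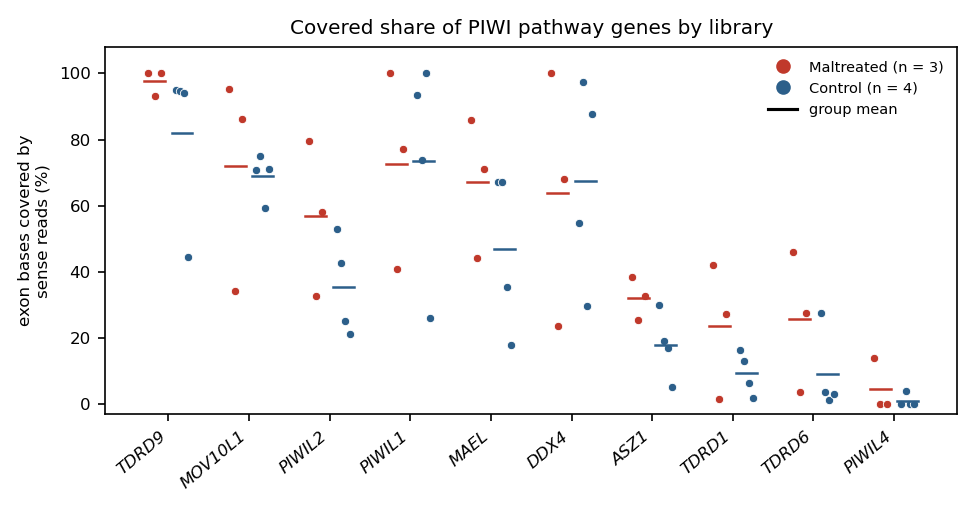
Covered part of the exon length of each of the 10 genes in each library, in percent, with Maltreated libraries before Control libraries. TDRD9 is covered over more than 90% in every library except Control 4 (44.6%), and PIWIL4 has no covered base in 5 of the 7 libraries.

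Sense counts were heaped on a few neighbouring exons of most of the genes, and in most of these, though not in ASZ1, the same exons recurred across animals. For each gene with at least 6 exons and at least 10 counts in every library, the 3 neighbouring exons with the highest mean share of counts were found in the Control libraries and read in the Maltreated libraries. PIWIL2 exons 8 to 10 (chromosome 8 at 22106388-22108175) make up 317 bases, 8.10% of its exon length. They held 66.8, 61.5 and 72.1% of its sense counts in Maltreated 1 to 3 and 74.5, 75.3, 81.0 and 62.7% in Control 1 to 4. Within them, exon 10 alone had 1185, 246 and 542 counts in Maltreated 1 to 3 and 491, 271, 188 and 369 in Control 1 to 4. In every library of both groups, then, over 60% of the PIWIL2 counts fell on these 3 of its 23 exons.

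TDRD9 exons 5 to 7 (chromosome 14 at 166488645-166497081), 366 bases and 7.77% of its length, held 57.3, 46.3 and 52.8% of its counts in Maltreated 1 to 3 and 59.3, 47.1, 50.7 and 63.3% in Control 1 to 4. MOV10L1 exons 9 to 11, 12.3% of its length, held 52.6, 41.7 and 44.2% in Maltreated 1 to 3 and 52.1, 49.2, 32.6 and 39.2% in Control 1 to 4. The groups overlapped for both genes. ASZ1 was uneven, as exons 3 to 5 held 47.1, 70.7 and 77.1% in Maltreated 1 to 3 and 27.4, 96.7, 100 and 0% in Control 1 to 4. The single exon leading in Control was the highest in 2 of 7 libraries for PIWIL1 and in 3 for PIWIL2, MAEL and ASZ1. It was the highest in 4 for TDRD9 and in 5 for MOV10L1 and DDX4. In the Maltreated libraries the share of counts on the chosen window was 8.25 times its share of length in PIWIL2, 6.71 times in TDRD9, 5.59 times in DDX4, 3.74 times in MOV10L1, 3.50 times in ASZ1, 2.85 times in PIWIL1 and 2.64 times in MAEL. The median was 3.74 times over these 7 genes and 4.22 times over all 5002 genes that met the same minimum, so such heaping was common in these libraries. The window chosen in Control was also the highest of the gene in Maltreated sperm in 5 of the 7 genes (71.4%), beside 3102 of 5002 genes (62.0%).

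**Figure D4:**
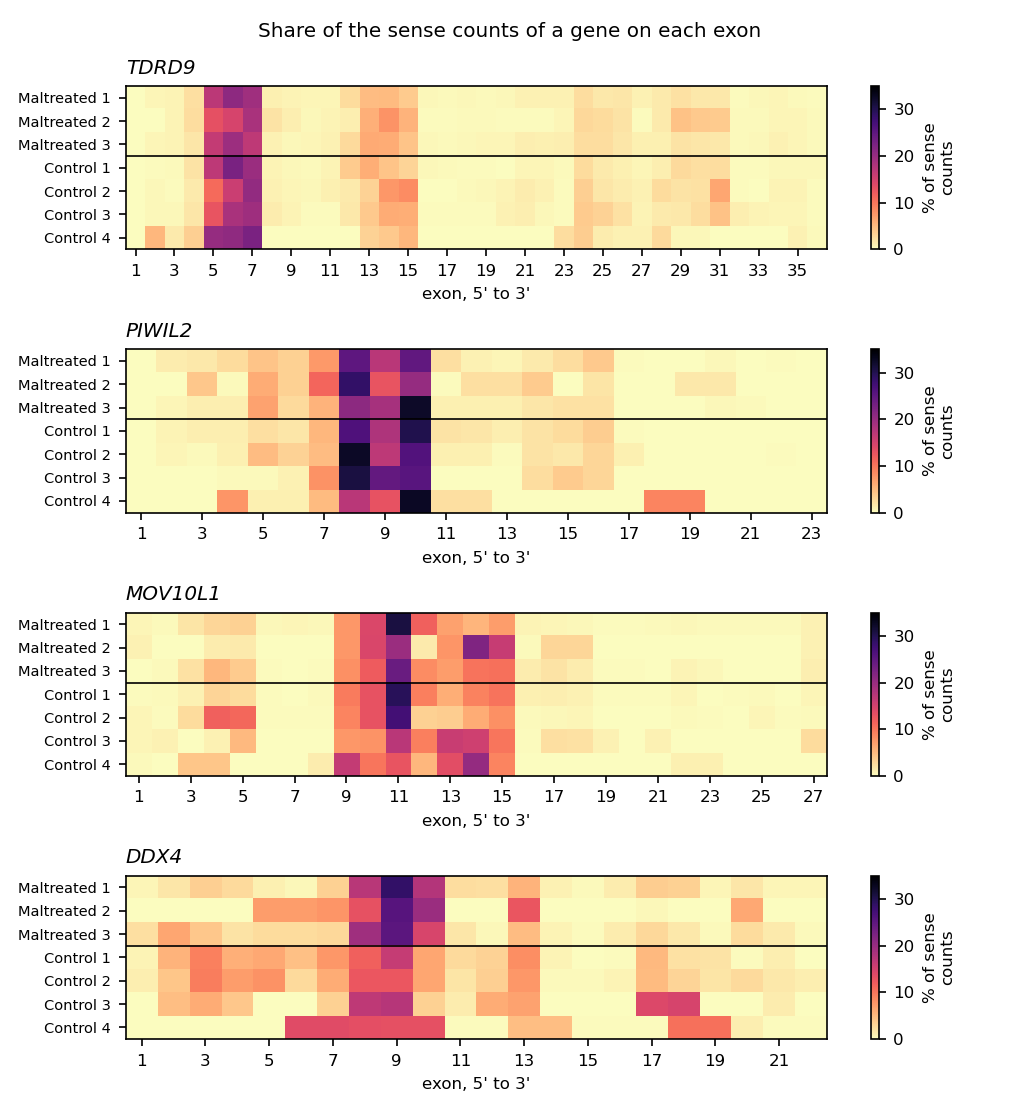
Percent of the sense counts of TDRD9, PIWIL2, MOV10L1 and DDX4 that fell on each exon, exons in order from the first, libraries in rows with Maltreated above Control. Darker cells hold a larger share. The dark exons 5 to 7 of TDRD9 and 8 to 10 of PIWIL2 recur in all 7 rows. Exon 9 of DDX4 is darker in the 3 Maltreated rows (25.2 to 28.7%) than in the 4 Control rows (12.5 to 17.4%).

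On DDX4 the shares of 2 neighbouring exons separated the groups although the level of the gene overlapped. Exon 9 (chromosome 5 at 56584415-56584494, 80 bases), the exon with the highest mean share of DDX4 counts in the Control libraries, had 521, 57 and 142 counts in Maltreated 1 to 3, against 67, 33, 26 and 95 in Control 1 to 4. It held 28.7, 25.7 and 25.2% of the DDX4 counts in Maltreated 1 to 3 and 16.3, 12.5, 17.4 and 13.2% in Control 1 to 4. All 3 Maltreated libraries lay above all 4 Control libraries. Exon 10 held 17.7, 19.8 and 14.5% in Maltreated 1 to 3 and 6.55, 6.46, 3.36 and 13.2% in Control 1 to 4. The window of exons 7 to 9 held 49.3, 46.4 and 47.3% in Maltreated 1 to 3 and 35.4, 31.2, 37.6 and 40.4% in Control 1 to 4, again without overlap. These exons were singled out after their values were seen and have no test. Of the 22 exons of DDX4, 2 were higher in Maltreated without overlap and 0 were lower, where over the exons of all 5002 genes 2.96% were higher and 0.740% lower. Such exons were not particular to DDX4. PIWIL2 also had 2 of 23 exons higher and 0 lower, and PIWIL1 had 1 of 19 higher and 0 lower. TDRD9 had 1 higher and 1 lower of 36, and MOV10L1, MAEL and ASZ1 had 0 in either direction. The window was higher without overlap in DDX4 alone of the 7 genes, and in 0.48% of the 5002. For the exon leading in Control, the share over the 5002 genes was higher in Maltreated without overlap in 0.34%, and separate in either direction in 4.36%, while among the 7 genes here 1 was higher and 2 were separate. The other was TDRD9, whose exon 7 held 19.4, 18.5 and 16.8% in Maltreated 1 to 3 and 19.8, 20.4, 19.4 and 22.5% in Control 1 to 4, a gap far smaller than the spread within each group.

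The low genes showed how few positions stood behind their counts. TDRD1 exon 2, 330 bases and 7.33% of the length, held 343 of 460, 30 of 30 and 104 of 152 counts in Maltreated 1 to 3, and 95 of 121, 19 of 43, 31 of 37 and 0 of 2 in Control 1 to 4. In Maltreated 2 all TDRD1 counts thus lay on that exon. TDRD6 keeps 70.2% of its length in exon 1, which had 42.1, 10.7 and 53.7% of its counts in Maltreated 1 to 3 and 55.0, 38.5, 71.4 and 96.5% in Control 1 to 4. The high TDRD6 level of Maltreated 2 came mainly from the short exons 2 and 3, with 43 and 63 of its 121 counts. ASZ1 in Control 4 had 62 counts on each of exons 11 and 12, exons without a count in the other 6 libraries, and these made up all of its 124 counts. Its high level there rests on this 1 pair of exons.

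The last exons of these genes were nearly empty. Pooled over the libraries, the last exon held 0.0326% of the PIWIL2 counts at 18.4% of the exon length, 0.281% of the TDRD9 counts at 14.4% and 0.386% of the DDX4 counts at 24.4%. It held 0.688% of the PIWIL1 counts at 26.1% of the length and 0.898% of the MOV10L1 counts at 8.19%, and TDRD1 and ASZ1 had no count on it. MAEL had 3.50% on the last exon at 31.5% of the length, TDRD6 1.24% at 27.4%, and PIWIL4 1 of its 17 counts. The same held widely, with a median of 1.47% of the counts at 37.3% of the length over the 5002 genes, so sparse last exons were not particular to the pathway.

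Antisense reads were a small part of the summed counts of the PIWI pathway genes, though not of every gene. They made up 2.89, 5.23 and 2.47% of the counts of the 10 genes together in Maltreated 1 to 3 and 2.83, 1.47, 1.02 and 0.723% in Control 1 to 4, below the share over all genes in each library. MOV10L1 had the most, with 476, 393 and 161 antisense counts in Maltreated 1 to 3, against 169, 39, 8 and 20 in Control 1 to 4. These were 8.46, 26.8 and 6.78% of its counts in Maltreated and 7.98, 3.49, 0.821 and 1.43% in Control sperm. They lay above the share over all genes in Maltreated 1 (6.15%), Maltreated 2 (9.69%) and Control 1 (6.85%), and below it in the other libraries. PIWIL1, DDX4, MAEL, TDRD1 and TDRD6 also lay above it in at least 1 library. The low pooled share leans on TDRD9, the gene with the most counts. Antisense CPM are scaled to the antisense counts of a library alone, so they cannot be set beside sense CPM. The MOV10L1 level of Control 1 (225 antisense CPM) lay above Maltreated 1 (193.5) and Maltreated 3 (195.5), so the groups overlapped. The antisense log2 fold change of MOV10L1 was 2.07 ± 1.18 (SE; 95% interval -0.50 to 4.63; adjusted p = 0.998, edgeR).

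Of the 10 genes, 4 had enough antisense counts to be tested. The edgeR test called 0 of the 4 at an adjusted and 0 at an unadjusted p of 0.05, beside 0% and 2.51% of the 4382 genes tested for antisense reads, and DESeq2 called 0 of the 4, beside 0.314% of the genes it tested. The groups were separate in 0 of the 4 and in 4.36% of all. The antisense log2 fold change was above 0 in 3 of the 4 genes, beside 45.9% of all, with 0.97 ± 1.503 for PIWIL1, -0.07 ± 1.30 for PIWIL2 and 0.23 ± 1.28 for TDRD9 (SE, each with adjusted p = 0.998, edgeR). TDRD9, the most abundant gene, had only 0.749, 0.221 and 0.289% antisense reads in Maltreated 1 to 3 and 0.265, 0.617, 0.377 and 0.594% in Control 1 to 4.

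Part of the antisense reads lay on the exons that also led in sense counts. Of 251 PIWIL2 antisense counts, 196 (78.1%) fell on exons 8 to 10, and of 1266 MOV10L1 antisense counts, 770 (60.8%) fell on exons 9 to 11. DDX4 had 153, 0 and 56 antisense counts in Maltreated 1 to 3, against 5, 2, 0 and 4 in Control 1 to 4. Exon 9 of DDX4, where the sense share was higher in Maltreated sperm, had 75, 0 and 25 of these in Maltreated 1 to 3 and 0, 0, 0 and 2 in Control 1 to 4. TDRD9 and PIWIL1 did not share this, with 6.12 and 2.82% of their antisense counts on their sense windows. Over 4700 genes with at least 10 antisense counts, the median share on the window was 27.3%, at a median 11.8% of the length. Where these reads came from was not tested.

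Some antisense counts were spread evenly over a whole gene. TDRD1 had exactly 1 antisense count on each of its 26 exons in Maltreated 1, with all exon bases covered. MOV10L1 had antisense counts on 27 of 27 exons in Control 1, 1 count on 21 of them, and on 27 of 27 exons in Maltreated 3, 2 counts on 17 of them. In Maltreated 2, the library with 26.8% antisense reads on MOV10L1, 14 of its exons had exactly 18 counts. A read that overlaps several exons is counted on each, so equal counts on neighbouring exons can come from the same reads and are not independent molecules. In sense counts, runs of 3 or more neighbouring exons with exactly equal counts were a small part. They made up 0, 0.456 and 0.498% of the counts of the 10 genes in Maltreated 1 to 3. In Control 1 to 4 they made up 0, 0.0882, 0.427 and 0.175%. Over all genes such runs made up 0.448 to 2.68% in Maltreated and 1.28 to 5.38% in Control libraries. This measure leaves out pairs and nearly equal runs, so it does not bound how often a read was counted on several exons. In Control 4, ASZ1 exons 11 and 12 had 62 sense counts each, PIWIL2 exons 18 and 19 had 101 each, and MAEL exons 2 and 3 had 54 each.

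**Figure D5:**
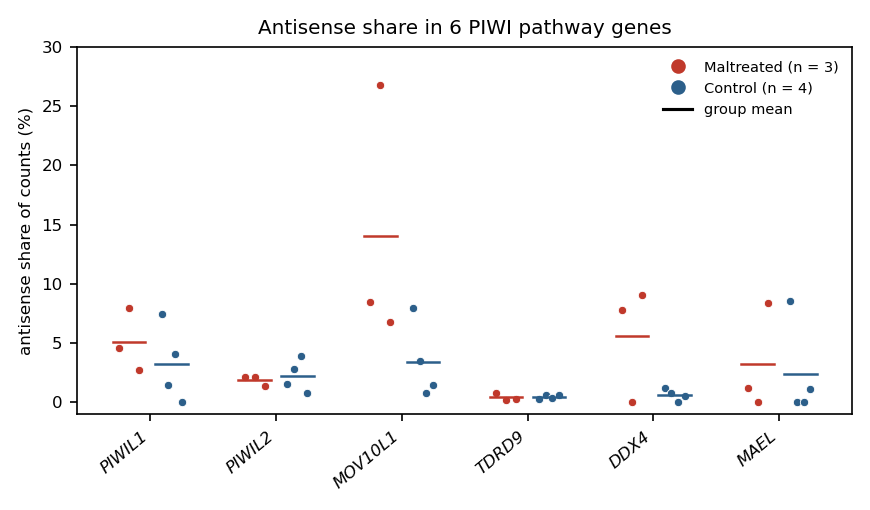
Antisense reads as percent of all counts of PIWIL1, PIWIL2, MOV10L1, TDRD9, DDX4 and MAEL in each library, Maltreated left of Control. MOV10L1 in Maltreated 2 stands highest among its own libraries at 26.8%, TDRD9 stays under 1% in all 7 libraries, and the groups overlap for MOV10L1.

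Other genes of the piRNA pathway did not pass the test either. Of 20 listed genes 19 were in the files and 15 were tested. The log2 fold change was above 0 in 6 and below 0 in 9 of them, beside 48.7% above 0 over all genes. Its median was -0.19, beside -0.02 over all genes. At an adjusted or an unadjusted p of 0.05 (edgeR), 0 of the 15 passed, beside 0% and 1.78% of all genes. The groups overlapped in all 15, and only 3.59% of all genes were separate. Highest per length were MORC1, a germ cell ATPase of transposon silencing in the mouse, FKBP6, a chaperone of piRNA loading, and RNF17, a Tudor protein of spermatids, with 164.5, 152 and 128 CPM per kilobase, near TDRD9. FKBP6 had 111, 304 and 128 CPM in Maltreated 1 to 3, against 222, 266, 208 and 303 CPM in Control 1 to 4, and overlapped between the groups. Its log2 fold change was -0.46 ± 0.37 (SE; unadjusted p = 0.240, edgeR), the smallest p of the list. STK31, a Tudor protein with a kinase domain, followed with 191, 121 and 117 CPM in Maltreated and 107, 137, 116 and 71.9 CPM in Control sperm and a log2 fold change of 0.41 ± 0.34 (SE). MYBL1, the transcription factor of pachytene piRNA precursors in the mouse, had 84.0 ± 7.36 CPM (SD, n = 3) in Maltreated and 104.4 ± 27.6 CPM (SD, n = 4) in Control sperm. Its fold change was -0.31 ± 0.33 (SE, log2 scale).

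The genes whose pattern over the 7 libraries was most like the summed level of the 10 were TBC1D5, DLG1 and SFMBT1. The root mean square difference of their centred log2 CPM from the centred log2 sum was 0.0329, 0.0356 and 0.0754, where the median of the 10710 genes compared was 1.01. The 3 genes were chosen by this value. The sum varied little (pooled SD within groups 0.127 on the log2 scale), so any gene of small spread is close to it. A shared pattern is therefore not shown. TBC1D5 had 1585, 1714 and 1319 CPM in Maltreated 1 to 3, against 1482, 1339, 1407 and 1555 CPM in Control 1 to 4.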

How the data were processed

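Total RNA libraries from the sperm of 7 rhesus macaques were analysed, 3 Maltreated and 4 Control, 1 library per animal, grouped by their titles. The submitters' processing notes name STAR, featureCounts and bedtools without versions or roles. The sources used here do not give the genome build. Coordinates follow the deposited files and are written from base 1. The deposited counts of reads overlapping each exon are not normalised, per the file headers and values, and the deposited covered fraction is covered bases over exon length, as the authors gave it. The authors' series table holds both per gene, split into sense and antisense, and its counts equalled the sums over exon entries in all 18282 genes. Of 233690 exon entries, 43070 repeat an exon of the same gene. RTN3 and ZC3HAV1, 2 genes listed on both strands, were left out. A read overlapping several exons is counted on each. No column belongs to a sample outside the series.

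The test on sense counts used edgeR 4.0.16 under R 4.3.3 (TMM factors, filterByExpr with minimum count 10 and minimum total 15, quasi-likelihood F test on the group, Benjamini-Hochberg over all genes tested, threshold 0.05, 5 residual degrees of freedom), and antisense counts in a fit of their own. SE is the absolute log2 fold change over the square root of F, and intervals use the quantiles of the same fit. Group means are of TMM-scaled CPM, with antisense CPM scaled to the antisense counts alone. The script was tested on simulated data. The p-values set the group difference against the spread between these libraries, with the spread of each gene moderated over all genes tested. Limits for a count of 0 are 3 counts over all sense counts and hold for counting error alone, because PCR copies were not told apart by molecular identifiers. The libraries had 5316383 to 30715268 sense counts.

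All 10 members are named. Of the other piRNA genes, the text names the 3 highest per kilobase and the 3 of smallest unadjusted p, and 3 genes were chosen for a pattern like the summed level. DDX4 exons 9 and 10, and PIWIL3 below, were named after their values were seen. The members and gene lists were chosen with earlier results of these data known. Alternatives were DESeq2 1.42.0 (size factors and Wald test), total counts, no filter, a mean count of 10, a replicate block, age as covariate, distinct exons only, non-overlapping exons only (chosen after seeing the data), sense plus antisense counts, exon counts above the lower neighbour, and leaving out libraries. Promoter, protein and transcript sequences were not used here.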

Additional observations from a re-analysis of the deposited data

Results flagged for a closer look

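In 9 of 44 values looked at over the 4 Control libraries, 1 library lay farther from the rest than Dixon's 95% limit for 4 samples allows. Chance flags about 1 in 20 such groups, but in 3 of the 9 (PIWIL4 on both measures and TDRD1) the other Control libraries are all at 0, where any count would be flagged. PIWIL1 had 96.5 CPM in Control 3, under the other Control libraries. PIWIL4 had counts in Control 2 only, at 0.725 CPM and 4.00% of the exon length covered. MAEL had 55.9 antisense CPM in Control 1, with 42 of the 45 Control counts, and TDRD1 had 4.33 antisense CPM in Control 4, from 3 counts. TDRD6 was covered over 27.7% in Control 1, above the rest. TDRD9 was covered over 44.6% in Control 4, below the rest, although its level there was 592 CPM. The leukocyte markers summed to 714 CPM in Control 4, and the markers of epithelium and accessory glands to 303 CPM in Control 2. The part of these cell markers in the levels of the 10 genes was not tested.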

How the results depend on the processing

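None of the 9 genes tested passed the threshold under any alternative run, and 154 of 171 log2 fold changes kept their direction. PIWIL4 was outside these fits. The others reversed. With the replicate block PIWIL2 came to 0.071 and DDX4 to 0.35, and 0 genes in all passed. Control 4 is the only library with its number, so in that fit it does not inform the group difference. The fit without Control 4 gave 0.050 for PIWIL2 and 0.31 for DDX4. Deviations of same-numbered libraries correlated at 0.075, 0.01 and -0.02. These values show no likeness by number, but they were not set against differently numbered libraries and cannot exclude a pairing. With age as covariate PIWIL2 came to 0.25, DDX4 to 0.83, MOV10L1 to 0.13 and TDRD9 to -0.11. With the direction kept, TDRD6 came to 2.33, PIWIL1 to 0.58, MAEL to 0.31, TDRD1 to 0.47 and ASZ1 to -0.15. Every Control animal except Control 3 was older than every Maltreated animal, so age and group can hardly be told apart in that fit. Its SE was larger than in the main fit for all 9 genes, for TDRD6 1.46 in place of 0.93. With antisense counts added MOV10L1 came to 0.035. With exon counts above the lower neighbour PIWIL1 came to -0.017, DDX4 to 0.014 and MAEL to -0.087. Leaving out 1 library gave -0.20 to 0.057 for PIWIL2, above 0 without Maltreated 3, Control 2 or Control 4. For MOV10L1 it gave -0.28 to -0.077. It gave -0.61 to 0.31 for DDX4, above 0 without Control 4, and -0.21 to 0.45 for MAEL, below 0 without Maltreated 2. Without Control 4 and Maltreated 3 together, the libraries high in leukocyte markers, PIWIL2 came to 0.15 and DDX4 to 0.32. Over all genes, sense calls numbered 0 in the edgeR fit, 3 with DESeq2 and 1 with age, and antisense calls 0, 13 with DESeq2 and 24 without a filter. Leaving out each library gave 0 to 0 calls, with 163 to 313 sense and 91 to 205 antisense genes at an unadjusted p of 0.05. The log2 ratio of the summed level was 0.07, and -0.03 to 0.14 without each library. The cause of these moves was not tested. At 3 against 4 animals, the intervals reach log2 changes of 0.64 in TDRD9 and 3.01 in TDRD1.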

Other observations

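PIWIL3, the fourth PIWI gene of primates, which mice lack, was below the filter and was named after its values were seen. It had 6, 304 and 0 counts in Maltreated 1 to 3 and 0, 0, 0 and 2 in Control 1 to 4. Its exon entries are repeated in the deposited files, and over its 21 non-overlapping exons the counts were 3, 152 and 0 in Maltreated 1 to 3 and 0, 0, 0 and 1 in Control 1 to 4. In Maltreated 2, 19 of the 21 exons had exactly 8 counts.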
